A study of Mus musculus with 4 samples.

Results

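Cytosolic ribosomal protein genes encode the proteins of the ribosome that translates nuclear messenger RNAs. They were taken here as the protein-coding genes with an Rps or Rpl symbol followed by a number and at most an a or x, together with Rpsa, Rplp0, Rplp1 and Rplp2. This gave 76 of the 54532 genes in the deposited table, of which 30 encode proteins of the small subunit and 46 proteins of the large subunit. Islet RNA was sequenced in 4 libraries, named here transgenic 1, transgenic 2, wild type 1 and wild type 2. The transgenic mice overexpressed miR-29a together with miR-29b-1, with expression described as specific to pancreatic beta cells. The wild-type mice carried no transgene. All were C57BL/6 males aged 10 to 12 weeks. The promoter that drives the transgene, the number of mice behind a library and whether islets were pooled are not stated in the sources. The p-values below therefore reflect the spread of these 4 libraries alone, and that spread may be technical. Each library is bulk RNA of whole islets, in which fewer cells of a type and less RNA per cell cannot be told apart.

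The small subunit decodes the messenger RNA and the large subunit joins amino acids. Each ribosome holds most of these proteins in a single copy, and the acidic stalk proteins Rplp1 and Rplp2 in more than one. Islet beta cells translate insulin on such ribosomes at a high rate. Ribosomal protein messenger RNAs of mammals usually begin with a tract of pyrimidines, the 5' terminal oligopyrimidine motif, through which mTOR and Larp1 control their translation and stability. The genes have many processed pseudogenes, copies of the spliced messenger RNA set back into the genome, whose sequence can be close enough for reads to be shared.

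The microRNAs of the transgene are shown first because their seed sets which messenger RNAs they can pair with. Both mature sequences are from RefSeq (GRCm38.p6, minus strand), at chr6:31062673-31062694 for miR-29a-3p and chr6:31063025-31063047 for miR-29b-3p, with bases 2 to 8, the seed, in capitals.
mmu-miR-29a-3p: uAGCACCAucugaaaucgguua
mmu-miR-29b-3p: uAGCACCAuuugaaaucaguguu
Both share 1 seed, and the 7 bases that pair with it, TGGTGCT, stood in the 3' UTR of 3 of the 76 members (3.95%), against 1457 of the 10674 protein-coding genes compared that have an annotated 3' UTR (13.65%). The members' 3' UTRs were short, with a median of 67 bases against 970.5 bases for those genes, so they offered less sequence to hold a match. The 3 members were Rpl5, which binds 5S ribosomal RNA, Rps3, a protein at the entry of the messenger RNA channel, and Rps20, a protein of the small subunit's head. In each gene 1 chosen transcript was searched, and which transcripts the islets use was not tested. Unlike most members, these 3 had long 3' UTRs there, of 1009, 1059 and 3167 bases, with the first match at base 425, 238 and 2540. Of these, Rps3 held 2 matches, and the first match of each 3' UTR is shown with the 7 bases in capitals, written as DNA from the GENCODE M21 transcripts.
Rpl5: aagtgaacaacTGGTGCTaatccatggctt
Rps3: cagtttggtttTGGTGCTcttgatggaacc
Rps20: gtatcacaactTGGTGCTcatccaatattt
FPKM, the deposited unit, is fragments scaled to gene length and to a library size that was not the sum of the reads. Rpl5 had 80.7 and 93.3 FPKM in the transgenic libraries, against 92.6 and 99.7 FPKM in the wild-type libraries. Rps3 had 71.7 and 100.5 FPKM in transgenic islets, against 78.0 and 102.9 FPKM in wild-type islets. Rps20 had 36.0 and 43.8 FPKM in transgenic islets, against 37.2 and 50.3 FPKM in wild-type islets. In all 3 genes the transgenic and wild-type values overlapped, and the differences in log2(FPKM + 1), transgenic minus wild type, were -0.15, -0.08 and -0.12. Between libraries of the same number all 3 were lower in transgenic islets. The differences in numbers 1 and 2 were -0.20 and -0.10 for Rpl5, -0.12 and -0.03 for Rps3, and -0.05 and -0.19 for Rps20. Of all members compared 53.3% were lower in both numbers, against 27.4% of all genes.

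The starts of the genes are shown because the pyrimidine tract is the sequence by which the family is known. RefSeq promoters were found for 56 of the 76 members and 20 members had no entry matched. Runs of pyrimidines were counted by their part within 15 bases on either side of the annotated start. A run counted this way need not begin at the start, so the counts are not counts of the terminal motif. A part of at least 7 bases occurred in 31 of the 56 genes (55.4%), against 21.3% of all protein-coding genes and 15.9% of mitochondrial ribosome genes. The small subunit genes held it in 12 of 22 (54.5%) and the large subunit genes in 19 of 34 (55.9%). The 30 bases around the start are printed on the gene's own strand (GRCm38.p6) for 5 members with a tract and 2 without one. The longest part of a run in these bases is in capitals, and that of Rps25 lies wholly before the annotated start.
Rps6, chr4:86857353-86857382, minus strand: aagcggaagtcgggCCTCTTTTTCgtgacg
Rps25, chr9:44407699-44407728, plus strand: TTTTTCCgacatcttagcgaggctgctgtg
Rpl7a, chr2:26910792-26910821, plus strand: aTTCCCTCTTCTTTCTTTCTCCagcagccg
Rpl27a, chr7:109519180-109519209, plus strand: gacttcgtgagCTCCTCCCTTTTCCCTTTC
Rps10, chr17:27635230-27635259, minus strand: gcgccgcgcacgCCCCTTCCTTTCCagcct
Rpl41, chr10:128549154-128549183, minus strand: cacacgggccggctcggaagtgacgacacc
Rpl24, chr16:55966260-55966289, plus strand: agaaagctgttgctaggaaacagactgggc
In the 250 bases before to 50 bases after the start, read on both strands, CCGGAAG, the core bound by ETS factors such as GABPA, was present in 23 of the 56 genes (41.1%), against 12.9% of all protein-coding genes and 37.7% of mitochondrial ribosome genes. TATAAA was present in 6 members (10.7%), against 14.8% of all protein-coding genes. A missing match says only that these letters are not in the window.

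The libraries held 23654135 and 21670854 reads in transgenic 1 and 2 and 23730364 and 27080907 reads in wild type 1 and 2. A count of 0 in a gene of 1 kilobase allows up to 0.116 to 0.143 FPKM, which covers counting error only. The islet hormone genes were high in every library, with Ins2 at 89340 to 211742 FPKM, Gcg at 11520 to 12617 FPKM and Sst at 2653 to 4713 FPKM. Ins2 took 12.8% and 25.5% of the reads in transgenic 1 and 2, against 20.1% and 26.6% in wild type 1 and 2. Acinar markers, 20 genes none of which was at 0, summed to 1.16% and 0.269% of the reads in transgenic 1 and 2, against 0.792% and 0.159% in wild type 1 and 2. These marker values moved with the library number, and within each number they differed between the genotypes. Their part in the differences between library numbers described below was not tested. The short genes of the microRNA precursors could not check the genotype: Mir29b-1 had 0 reads in every library, and Mir29a had 0 reads in transgenic 1, transgenic 2 and wild type 1 and only 3 in wild type 2.

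All 76 members were detected in every library, and they were among the most abundant messenger RNAs of the islets. Averaged over the 4 libraries, 70 of the 76 ranked among the 1000 genes with the highest FPKM, and 33 reached 100 FPKM in each library. Their levels nonetheless ran from 0.678 to 797 FPKM. Part of this range comes from the gene length by which FPKM divides, which was 1.20 to 16.0 times the length of the coding sequence (median 3.88).

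In the large subunit the highest member was Rplp1, a protein of the acidic stalk that recruits elongation factors, with 674 and 893 FPKM in transgenic 1 and 2, against 694 and 928 FPKM in wild type 1 and 2. Rpl41, the shortest protein of the ribosome with a coding sequence of 78 bases, followed with 458 and 634 FPKM in transgenic islets, against 452 and 660 FPKM in wild-type islets. Rplp0, the base of the stalk, had 389 and 403 FPKM in transgenic islets, against 458 and 382 FPKM in wild-type islets. Each of these 3 genes overlapped between the genotypes.

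In the small subunit the highest members were Rps15, Rps14 and Rps6, the subunit that S6 kinases phosphorylate. Rps15 had 343 and 365 FPKM in transgenic islets, against 363 and 371 FPKM in wild-type islets. Rps14 had 222 and 398 FPKM in transgenic islets, against 249 and 351 FPKM in wild-type islets, so that it was high in both libraries numbered 2. Rps6 had 265 and 286 FPKM in transgenic islets, against 322 and 289 FPKM in wild-type islets, the lower wild-type value lying just above the higher transgenic one. On a scale of reads per kilobase of coding sequence the order was different, with Rpl41, Rpl10 and Rplp1 first, and the Spearman correlation between both scales over the 76 genes was 0.61. Rps15a and Rps24, whose gene lengths are 16.0 and 15.6 times their coding lengths, ranked 72 and 65 of 76 by FPKM and 56 and 7 of 76 per kilobase of coding sequence.

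The lowest members of the large subunit were Rpl24, Rpl13a and Rpl21, and the lowest of the small subunit were Rps10, Rps15a and Rps19. Rps10, whose protein is in the small subunit's head, had 0.688 and 0.597 FPKM (41 and 29 reads) in transgenic islets, against 0.725 and 0.701 FPKM (40 and 42 reads) in wild-type islets. It was the only member under the minimum for testing, an FPKM of 1 in at least 2 libraries. Rpl24 had 2.18 and 1.48 FPKM (58 and 32 reads) in transgenic islets, against 2.24 and 1.24 FPKM (55 and 33 reads) in wild-type islets. Rpl13a, also known for a role outside the ribosome in translational silencing during the interferon response, had 6.81 and 7.65 FPKM in transgenic islets, against 7.47 and 8.26 FPKM in wild-type islets. These 3 genes and Rpl19 were the 4 members overlapped on the same strand by another annotated gene whose transcripts hold some of the same coding sequence. The other gene was RPS10-NUDT3 for Rps10, with 90.6% of the 50-base words of its coding sequence, Gm28037 for Rpl24, with 81.2%, and Gm45713 for Rpl13a, with 97.5%. How the counting treated a read that fits 2 genes is not stated in the sources, so the levels of these genes are uncertain.

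**Figure D1:**
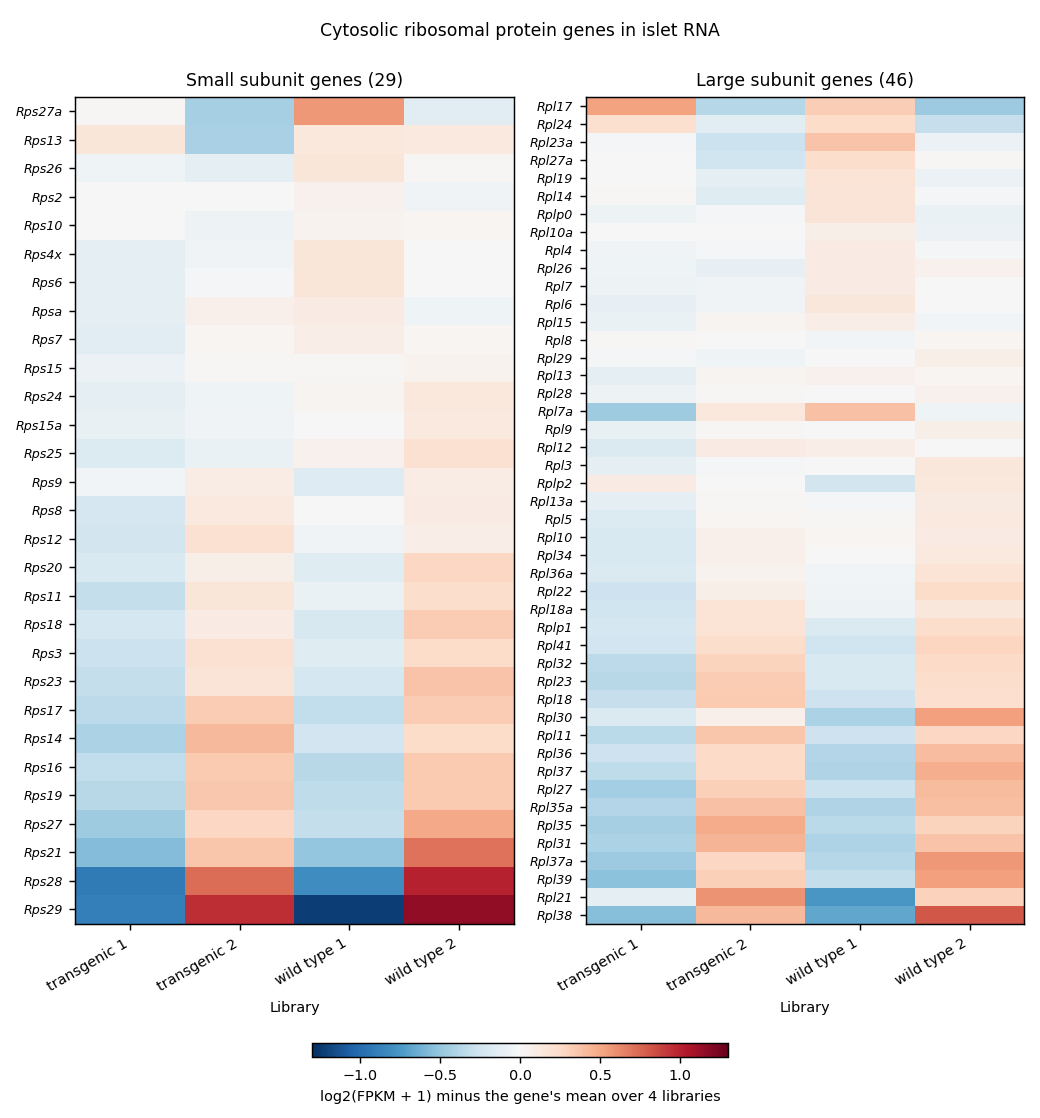
Level of 75 of the 76 genes in each library, as log2(FPKM + 1) minus the gene's own mean over the 4 libraries, with small subunit genes on the left and large subunit genes on the right, ordered by the libraries numbered 2 together. Red is higher and blue lower than the gene's mean, and columns of the same library number resemble each other more than columns of the same genotype, most of all in Rps29, Rps28 and Rpl38 at the foot of the panels.

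Between the genotypes, most members were slightly lower in transgenic islets, by less than the spread between libraries. Of the 75 members compared, 61 had a negative difference (81.3%), against 46.7% of all 12716 genes compared, and the median log2 difference was -0.10, or -0.12 in the libraries numbered 1 and -0.06 in those numbered 2, against 0.01, 0.02 and 0.01 over all genes. None of the members was called by limma with Benjamini-Hochberg adjustment at 0.05, against 0% of all genes, none had an unadjusted p under 0.05, against 0.653% of all genes, and the smallest was 0.185, for Rps25. voom in limma on the recovered reads, also without a term for library number, called 0 members. Without transgenic 1 the median was 0.01 and 34 of the members compared were below 0, without wild type 2 it was -0.04 and 40 were below 0, and without transgenic 2 it was -0.25. Leaving out a library also leaves the library numbers unequal between the genotypes, and the members differed by a median of 0.17 between the numbers. Within each number, Ins2 took a smaller share of the reads in transgenic islets and the acinar markers a larger one, as given above. Their part in these differences was not tested. The library size implied by the deposited FPKM was 1.09 and 0.970 times the summed reads in transgenic 1 and 2. In wild type 1 and 2 it was 1.01 and 0.957 times that sum. No fit was scaled by the summed reads, and the part of this scaling in the differences was not tested.

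Within the library numbers, 40 members were lower in transgenic islets in both numbers (53.3%), against 27.4% of all genes, and 3 were higher in both, against 33.5% of all genes. The 3 were Rpl17, Rpl21 and Rps16. In 14 members both transgenic libraries were below both wild-type libraries (18.7%), against 9.03% of all genes, and in 0 members both were above, against 12.2% of all genes. Of the 29 small subunit members compared they were 7 (24.1%), Rps4x, Rps6, Rps7, Rps15a, Rps24, Rps25 and Rps26. Of the 46 large subunit members they were also 7 (15.2%), Rpl3, Rpl4, Rpl6, Rpl7, Rpl26, Rpl27a and Rpl29, and the difference between these shares was not tested. Rps10, which was not tested, lay the same way.

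Rps25, a protein needed for initiation at several viral and cellular internal entry sites, gave the clearest separation. It had 74.8 and 79.8 FPKM in transgenic islets (mean 77.3 ± 3.51 SD, n = 2), against 88.3 and 97.5 FPKM in wild-type islets (mean 92.9 ± 6.46 SD, n = 2). The log2 difference was -0.26 ± 0.17 (standard error), with -0.24 in number 1 and -0.29 in number 2, and the adjusted p from limma was 1.00. Rpl27a, a large subunit protein, had 119 and 99.2 FPKM in transgenic islets, against 139 and 120 FPKM in wild-type islets, with a log2 difference of -0.25 ± 0.20 (standard error). Every transgenic value was below every wild-type value in both genes.

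Rps27a (chr11:29545846-29548109, minus strand, GRCm38), which is made as a fusion with ubiquitin, had the lowest log2 difference of the members, -0.42 ± 0.32 (standard error). It had 67.7 and 49.5 FPKM in transgenic islets, against 100 and 60.5 FPKM in wild-type islets, lower in both numbers, although transgenic 1 lay above wild type 2. Rpl23a, which lines the exit of the peptide tunnel, had 121 and 101 FPKM in transgenic islets, against 159 and 116 FPKM in wild-type islets, again lower within each number with overlapping groups. Rpl7a, a large subunit protein, had 38.1 and 58.0 FPKM in transgenic islets, against 69.2 and 50.9 FPKM in wild-type islets. Its within-number differences pointed apart, -0.84 in number 1 and 0.19 in number 2, with transgenic 1 the lowest library and wild type 1 the highest.

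At the other end, Rpl21 (chr5:146832890-146837032, plus strand, GRCm38), a large subunit protein, had 11.5 and 19.5 FPKM in transgenic islets, against 7.07 and 15.8 FPKM in wild-type islets. Its log2 difference was 0.46 ± 0.45 (standard error), higher within each number and overlapping between the genotypes. Rpl17 had 158 and 84.6 FPKM in transgenic islets, against 137 and 78.6 FPKM in wild-type islets, with a difference of 0.16 ± 0.43 (standard error). Rplp2, the partner of Rplp1 in the stalk, had 58.4 and 54.1 FPKM in transgenic islets, against 45.6 and 59.5 FPKM in wild-type islets, and Rps9, a small subunit protein that takes part in decoding accuracy, had 102 and 112 FPKM in transgenic islets, against 93.4 and 112 FPKM in wild-type islets. Neither of them was higher in both numbers.

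Among the members chosen for their role, Rpl3, next to the peptidyl transferase centre, had 98.9 and 106 FPKM in transgenic islets, against 107 and 119 FPKM in wild-type islets. Rps4x, encoded on the X chromosome, had 184 and 194 FPKM in transgenic islets, against 223 and 201 FPKM in wild-type islets, and Rpl26, known in human cells to bind the p53 messenger RNA, had 148 and 142 FPKM in transgenic islets, against 165 and 160 FPKM in wild-type islets. The genotypes did not overlap in any of these 3, with log2 differences of -0.14, -0.16 and -0.16. Rpsa, which is also described as a laminin receptor, overlapped, with 149.8 and 171 FPKM in transgenic islets, against 176 and 157 FPKM in wild-type islets. Rps15a, with 19.9 and 20.6 FPKM in transgenic islets against 21.4 and 23.4 FPKM in wild-type islets, and Rps19, the gene most often mutated in Diamond-Blackfan anaemia, with 27.9 and 46.5 FPKM in transgenic islets, against 28.5 and 45.9 FPKM in wild-type islets, showed the smallest levels apart from Rps10 in the small subunit.

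**Figure D2:**
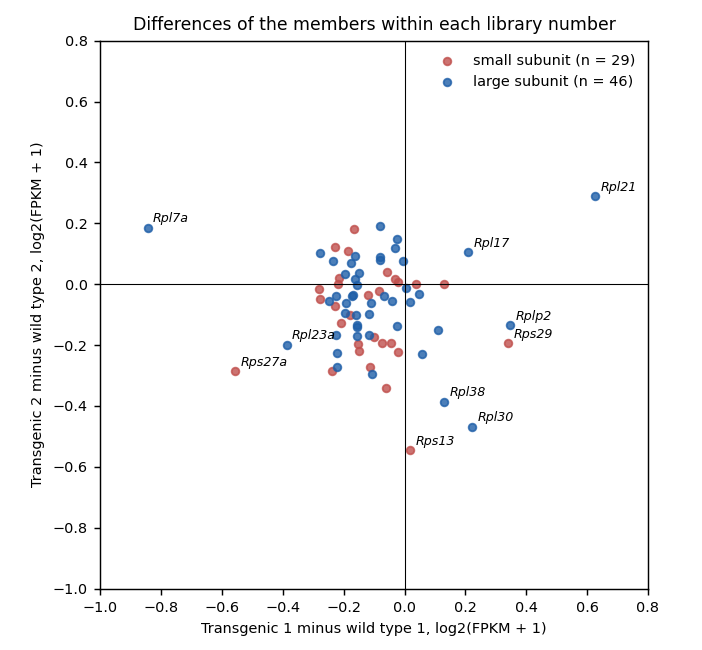
Difference between transgenic and wild-type islets of each of the 75 members compared, in log2(FPKM + 1), in the libraries numbered 1 (horizontal axis) and numbered 2 (vertical axis). The 40 points at the lower left are lower in transgenic islets in both numbers and 3 at the upper right are higher in both, and small and large subunit genes are mixed.

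The small and the large subunit genes differed little from each other in this comparison. Of the small subunit members, 25 of 29 were below 0, with a median of -0.12, and of the large subunit members 36 of 46, with a median of -0.08. Small minus large was -0.04 on the log2 scale, against a pooled standard deviation of 0.0386 between libraries of a genotype, so no difference between the subunits stood out from that spread. It was 0.04 without transgenic 1 and 0.05 without wild type 2. Those 2 values cannot test the subunits, since leaving out a library leaves the library numbers unequal between the genotypes. The medians of the libraries numbered 1 were -0.12 for small and -0.13 for large subunit members, and in those numbered 2 they were -0.07 and -0.05. The ratio of reads in small subunit genes to reads in large subunit genes was 0.601 and 0.640 in transgenic 1 and 2, against 0.608 and 0.651 in wild type 1 and 2, so it followed the library number.

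As a share of all reads, the 76 members held 1.75% and 1.90% in transgenic 1 and 2, against 1.77% and 1.96% in wild type 1 and 2, with an exact binomial 95% interval of 1.90% to 1.91% in transgenic 2, the library with the fewest reads. The transgenic mean over the wild-type mean was 0.979, and 0.987 and 0.971 within numbers 1 and 2. Outside Ins2, Ins1 and Iapp the ratio of shares was 0.924. As a share of summed FPKM, with the members also taken in FPKM, it was 1.03, with 1.09 and 0.978 within numbers 1 and 2. In number 1 the direction thus depended on the measure used. Of all reads, the ratio was 1.02 without transgenic 1 and 1.03 without wild type 2, which leaves the library numbers unequal between the genotypes. Between 2 and 2 libraries an exact permutation test cannot go below a p of 0.33, and none was run on these shares.

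**Figure D3:**
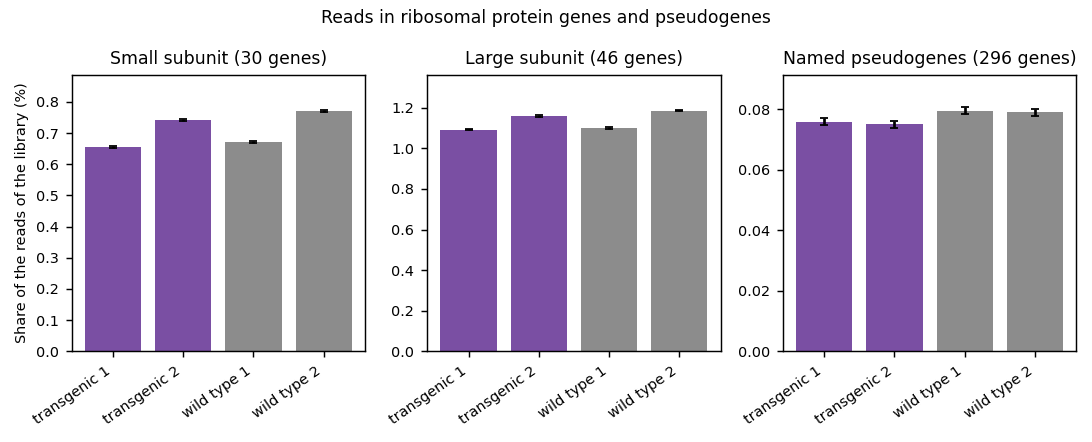
Share of each library's reads, in percent, in the 30 small subunit genes, the 46 large subunit genes and the 296 pseudogenes named after a member, with transgenic libraries in purple and wild-type libraries in grey. Bars are single libraries and error bars are exact binomial 95% intervals for counting error only; both subunits were higher in the libraries numbered 2, while the pseudogenes were at 0.0759% and 0.0750% in transgenic islets, against 0.0795% and 0.0789% in wild-type islets.

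Like all genes compared, the members differed more between library numbers than between genotypes. Over the 75 members, log2(FPKM + 1) correlated between transgenic 1 and wild type 1 with a Pearson r of 0.990 and between transgenic 2 and wild type 2 with 0.993, against 0.944 between transgenic 1 and 2 and 0.920 between wild type 1 and 2. Over all genes compared r was 0.985 and 0.989 within numbers 1 and 2, against 0.95 within each genotype. These correlations are across genes, which are not independent replicates. In both genotypes 48 members were higher in number 2 than in number 1 (background 40.2% of all genes) and 11 were lower in both (background 38.8%). The labels do not say what the number stands for.

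This contrast followed the length of the coding sequence. The 9 members with fewer than 300 coding bases, Rpl37, Rpl37a, Rpl38, Rpl39, Rpl41, Rps21, Rps27, Rps28 and Rps29, had a median difference, number 2 minus number 1, of 0.84 in transgenic and 0.93 in wild-type islets on the log2 scale. The 37 members with 300 to 499 coding bases had medians of 0.29 and 0.31, and the 29 members with 500 bases or more had 0.12 and -0.06. Among all 258 compared protein-coding genes with fewer than 300 coding bases the medians were 0.29 and 0.30. Over the members the Spearman correlation of the difference with coding length was -0.49 in transgenic and -0.68 in wild-type islets, against -0.54 and -0.36 over 77 genes of the mitochondrial ribosome and -0.22 and -0.15 over all protein-coding genes. It is a description across genes that share the same libraries.

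Rps29, a small subunit zinc-binding protein with 171 coding bases, had 109 and 395 FPKM in transgenic 1 and 2, against 85.9 and 452 FPKM in wild type 1 and 2. Rps28, with 210 coding bases, had 32.7 and 105 FPKM in transgenic 1 and 2, against 35.4 and 127 FPKM in wild type 1 and 2. These were the 2 members at least 1 log2 unit higher in number 2 in both genotypes (2.67%, background 0.558%), and 0 members were as much lower in both (background 1.97%). Rpl38, known in the mouse for the Tail short phenotype and altered translation of Hox messenger RNAs, had 156 and 307 FPKM in transgenic 1 and 2, against 142 and 401 FPKM in wild type 1 and 2. In all 3 genes the spread within a genotype exceeded the difference between genotypes. Rpl17 went the other way, lower in number 2 by 0.84 on average, and Rps27a by 0.58.

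**Figure D4:**
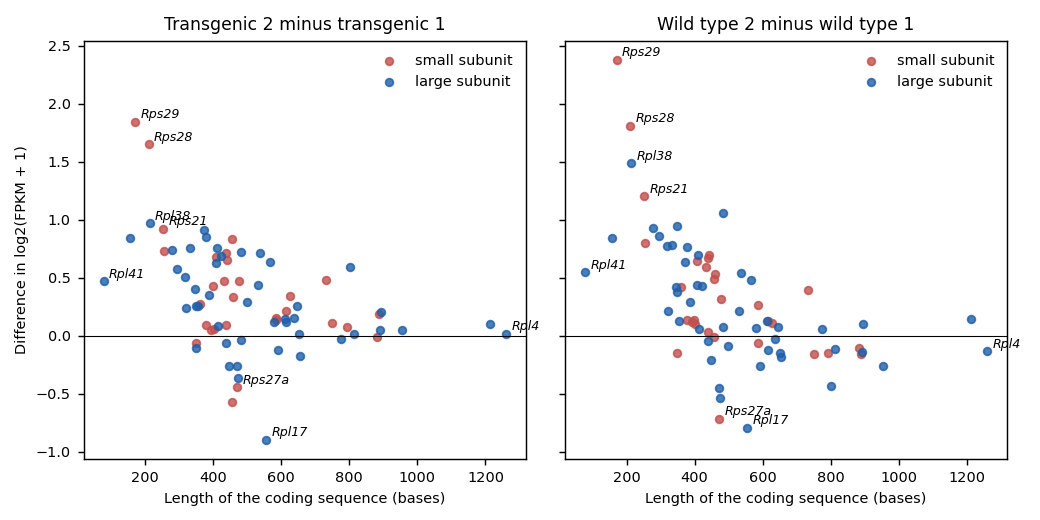
Difference between the libraries numbered 2 and 1 of each genotype, in log2(FPKM + 1), against the length of the coding sequence in bases for the 75 members compared, with transgenic islets on the left and wild-type islets on the right. In both panels Rps29 and Rps28, with 171 and 210 coding bases, were the most raised in number 2, Rpl41, with the shortest coding sequence, lay lower at 0.47 and 0.55, and genes with 500 or more coding bases lay near 0 on average.

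Reads of a ribosomal protein can fall on its copies as well as on the gene. When coding sequences were cut into all words of 50 bases, 26 of the 76 members had no word of their own, since each also occurred in a transcript of another gene, and 10 shared under 50% of their words. There were 424 genes outside the rule that held at least 20% of a member's words, called copies here. The reads of a copy were counted in full, also where they came from sequence outside the shared words. Not all copies bear the name of a ribosomal protein pseudogene: the copy with the most reads was BC004004 for Rpl21 and Wdr89 for Rplp2. In the median member copies held 5.14% of the reads of gene and copies together, and in 38 members they held under 5%.

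In 4 members the copies held more reads than the gene itself. Rps10 had 97.9% of the reads of its family in copies, chiefly in Rps10-ps2, a processed pseudogene with 148 and 126 FPKM in transgenic islets, against 155 and 140 FPKM in wild-type islets. Rpl21 had 77.3%, Rpl17 66.9% and Rpl24 57.7%. The split between gene and copies also varied between libraries: for Rpl21 the copies held 79.1% and 68.6% in transgenic 1 and 2, against 87.2% and 74.9% in wild type 1 and 2, and for Rpl17 they held 53.1% and 74.1% in transgenic 1 and 2, against 64.3% and 77.3% in wild type 1 and 2.

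Adding the reads of the copies to those of the member, an alternative chosen after seeing the data, turned 5 of the 14 members that had been above 0 to below 0, and 9 stayed above 0. The log2 difference of Rpl21 was then -0.01 in place of 0.46, that of Rpl17 -0.13 in place of 0.16 and that of Rpl24 -0.10 in place of 0.06. Rps14 and Rps29 turned as well, each by less than 0.1. Rplp2, at 0.13 in place of 0.11, and Rps9, at 0.06 in both, were among those that stayed above 0. The lower members kept their sign, with -0.41 for Rps27a, -0.26 for Rps25, -0.26 for Rpl23a and -0.24 for Rpl7a. With copies added the median over the 76 members was -0.11 and 67 of the 76 were below 0. None passed the limma test in this form either.

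**Figure D5:**
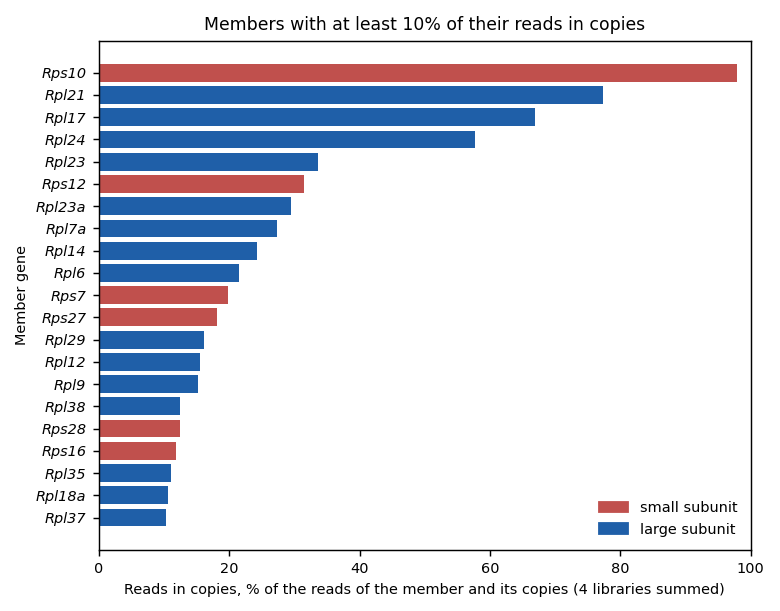
Share of the reads of a member and its copies that was counted on the copies, in percent and summed over the 4 libraries, for the 21 members with at least 10%. Rps10, Rpl21, Rpl17 and Rpl24 lie above 50%, and bars are coloured by subunit.

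The 296 pseudogenes named after a member (288 annotated as pseudogenes and 8 as protein coding) together held 0.0759% and 0.0750% of the reads in transgenic 1 and 2, against 0.0795% and 0.0789% in wild type 1 and 2. The ratio of the means was 0.952, with 0.954 and 0.95 within numbers 1 and 2. As a share of summed FPKM it was 1.01, with 1.05 and 0.975 within numbers 1 and 2. Of the 62 pseudogenes compared, 37 had a negative difference and the median was -0.05. The highest was Rpl17-ps10, with 145 and 210 FPKM in transgenic islets, against 204 and 242 FPKM in wild-type islets, while Rpl17 itself was 0.16 higher. Rpl9-ps6, annotated as protein coding, had the smallest p of this group, 0.0569 unadjusted in limma, with 36.5 and 34.2 FPKM in transgenic islets, against 49.0 and 44.9 FPKM in wild-type islets.

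Some ribosomal protein genes have symbols that the rule does not take. Rps3a1 had 485 and 551 FPKM in transgenic islets, against 563 and 609 FPKM in wild-type islets, so the genotypes did not overlap. Fau, made as a fusion with a ubiquitin-like protein, had 199 and 289 FPKM in transgenic islets, against 216 and 295 FPKM in wild-type islets, and Rack1, a scaffold on the small subunit, had 55.8 and 56.6 FPKM in transgenic islets, against 64.1 and 55.6 FPKM in wild-type islets.

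Of 9 paralogs of ribosomal proteins, 6 passed the minimum for testing. Rpl10l and Rpl39l, paralogs known from the testis, had 0 reads in every library, and Rpl3l, known from heart and skeletal muscle, reached 0.0290 to 0.178 FPKM. Rps27l, which is a p53 target in human cells, had 54.1 and 69.1 FPKM in transgenic islets, against 62.0 and 69.8 FPKM in wild-type islets. Rpl22l1, a paralog that Rpl22 represses in mice, had 22.7 and 27.0 FPKM in transgenic islets, against 22.5 and 25.6 FPKM in wild-type islets. The other compared paralogs, Rps27rt, Rps4l, Rpl7l1 and Rpl36al, overlapped between the genotypes as well, and log2 differences of the 6 ran from -0.16 to 0.22.

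The lists around the ribosome showed no called gene. Of 77 mitochondrial ribosomal protein genes compared, 48 were below 0 and the median was -0.04, between the members at -0.10 and all genes at 0.01. Of 15 translation factors and other genes with a pyrimidine tract, 9 were below 0 with a median of -0.02; Eef1a1, the elongation factor that brings transfer RNA, had 1338 and 1074 FPKM in transgenic islets, against 1648 and 1089 FPKM in wild-type islets. Of 20 ribosome biogenesis genes, 13 were above 0 with a median of 0.06, among them Bop1, needed for large subunit maturation, with 8.68 and 8.05 FPKM in transgenic islets, against 7.01 and 7.37 FPKM in wild-type islets. Of 10 compared genes that control ribosomal protein synthesis, 9 were above 0 with a median of 0.14. Mtor had 5.60 and 4.69 FPKM in transgenic islets, against 4.6 and 4.36 FPKM in wild-type islets, and Myc, a transcription factor that raises ribosomal protein genes, had 4.81 and 2.80 FPKM in transgenic islets, against 3.96 and 1.41 FPKM in wild-type islets. Rps6kb1, the kinase of Rps6, was the member of that list below 0, with 4.11 and 4.28 FPKM in transgenic islets, against 4.54 and 4.64 FPKM in wild-type islets.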

How the data were processed

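The authors deposited 1 table of FPKM and gene lengths for 54532 genes in 4 libraries of islet RNA, with groups taken from the genotype label. Islets were frozen and RNA extracted with Trizol before TruSeq library construction, per the labels' protocols. The submitters' processing notes name HTSeq 0.6.0 and the build GRCm38. The aligner, the handling of reads that align at several places and the use of strand are not stated there. FPKM times gene length was a whole multiple of 1 step per library for 100% of values above 0 (tolerance 0.001), and these multiples were taken as reads (share intervals and floors cover counting error only). The 12716 genes that reached an FPKM of 1 in 2 or more libraries were tested with limma 3.58.1 under R 4.3.3 (eBayes with trend, 2-sided) on log2(FPKM + 1), fitting genotype alone, and Benjamini-Hochberg adjustment over all genes compared. The pseudocount of 1 understates the change of low genes. The fit was also run on simulated reads with known folds, and how often it found them is not given here. Coding lengths, GC content, 50-base words and 3' UTRs came from GENCODE M21 (GRCm38), and promoters and microRNAs from RefSeq (GRCm38.p6). Members and lists were chosen with earlier results of these data known.

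Members named with values are, in each subunit, the 3 highest and 3 lowest in mean FPKM; the 5 with the smallest p in each direction; the 3 with the largest difference in each direction with library number as a term; and 10 chosen for their role. Other members were named after their values were seen. Related genes and paralogs were named, and other lists by the smallest p; 1 member and 1 related gene are not reported here by name. Alternatives were another pseudocount, other filters, other scalings, voom in limma on the recovered reads, library number as a term, removal of a GC curve, leaving out each library, and other member sets. Adding the reads of copies and counting the members below 0 were chosen after seeing the data.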

Additional observations from a re-analysis of the deposited data

How the results depend on the processing

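With 2 libraries a genotype, the spread between library numbers limits every test. Library numbers are in the titles, but no label says that they mark shared animals or days, so the main comparison has no such term. Deviations from the genotype means correlated by number at 0.775 over all genes and 0.884 over the members. With a replicate block for the number, limma on log2(FPKM + 1) called 0 genes (0 members), voom called 72 genes (0.511% of all genes higher and 0.055% lower), 2 of them members, Rps27a (-0.45, adjusted p = 0.0287) and Rpl21 (0.46, adjusted p = 0.0477). The replicate block with the GC curve removed called 77 genes (0.503% higher, 0.102% lower), 3 of them members, Rpl21 (0.49, adjusted p = 0.000668), Rps27a (-0.40, adjusted p = 0.00496) and Rpl7a (-0.39, adjusted p = 0.00888), and small minus large was 0.000581. In that fit Rps14 was at -0.0986 and Rps9 at -0.0338. Rpl7a differed by -0.84 in number 1 and 0.19 in number 2. Its standard error in that fit was nonetheless 0.0938, close to the 0.0937 of Rps27a and of Rpl23a. Rps13, Rps25 and Rpl21 had standard errors of 0.0935, 0.0941 and 0.102 there. The adjusted p-values of Rpl21, Rps27a and Rpl7a in that fit thus do not reflect each gene's own spread. These fits used the reads of the members alone; the block was not run with the reads of copies added.

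Among single members, the difference of Rps14 was 0.01 in the main comparison, -0.00673 with voom, -0.0142 with voom and the block, -0.0762 with the GC curve removed and -0.00300 with copies added. Rps9 was at -0.017 with the GC curve removed, against 0.06. With copies added, Rpl24 was at -0.0972, Rpl21 at -0.0119 and Rpl17 at -0.13, each above 0 before. The pseudogene share ratio was 0.898 outside Ins2, Ins1 and Iapp and 1.01 on summed FPKM. The cause was not tested.

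Leaving out 1 library at a time gave ranges of -0.25 to 0.00735 for the median of the members, -0.24 to 0.00287 for the large subunit, -0.0667 to 0.0487 for small minus large, and 34 to 69 members below 0. Named members whose sign changed ranged as follows: Rpl17 from -0.29 to 0.60, Rpl21 from -0.0716 to 0.99, Rpl24 from -0.20 to 0.33, Rpl41 from -0.29 to 0.25, Rplp0 from -0.21 to 0.0507, Rplp1 from -0.26 to 0.16, Rplp2 from -0.0807 to 0.29, Rps14 from -0.41 to 0.43, Rps19 from -0.37 to 0.35, Rps9 from -0.0676 to 0.20, Rpsa from -0.15 to 0.0438. No member or other gene was called in these 4 fits. The median of the members was below 0 in every setting run except without transgenic 1. Median ratio scaling could not change the median, since its factor was 1.00439 in every library. Scaling without Ins2, Ins1 and Iapp had factors of 0.993 to 1.01, and no setting scaled by the summed reads.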
